A study of Mus musculus with 10 samples.

Results

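Tmem132d, Fzd10, Piwil1, Rimbp2 and Stx2 lie next to each other on mouse chromosome 5. They are 5 of the 49939 RefSeq genes on the main chromosomes, and were chosen by which lists held a peak: several peaks of open chromatin in this stretch were in the lists of cells without Smchd1 and not in the control lists. ATAC-seq measures open chromatin through the Tn5 transposase, an enzyme that cuts accessible DNA and tags it with adapters. Every deposited peak with its summit in a member gene or within 50 kb of either end was taken, from 127733491 to 129058600 (mm10) with 2 gaps left out, 1.23 Mb in all. That gave 45 peaks of 130103 in fl/fl females, 57 of 104316 in del/del females, 36 of 101322 in fl/fl males and 50 of 88159 in del/del males, which merge into 75 sites of 150516. All contrasts between deleted and control lists are therefore descriptions and were not tested.

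The cells were C57BL/6 neural stem cell lines derived from E14.5 embryos with floxed Smchd1, a chromatin protein of the SMC family that is known for silencing on the inactive X chromosome and at gene clusters. Deleted cells were Smchd1 del/del and controls Smchd1 fl/fl, with 3 libraries each in females and 2 each in males. Per the labels' protocols, floxed lines received the retrovirus MSCV-Cre-puro, puromycin was added after 24 h, and cells were collected 7 days after transduction; the same text stands with the controls, and the sources used here do not give what control cells received. The male samples are male by title and sex field but female in their description. Each group was deposited as 1 peak list, called after its libraries had been pooled, and no value has a replicate error.

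The members belong to different pathways. Tmem132d encodes a membrane protein of the TMEM132 family, which is expressed in brain and has been linked to anxiety traits. Rimbp2 encodes a RIM-binding protein that ties calcium channels to the release site of the synapse. Stx2 encodes syntaxin 2 (epimorphin), a SNARE protein of the plasma membrane needed for membrane fusion. Fzd10 encodes a Frizzled receptor for Wnt ligands, and Piwil1 (MIWI) encodes a PIWI protein that binds piRNAs in male germ cells. Active promoters are usually open, while peaks away from promoters often mark enhancers and other cell-type-specific elements.

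The promoters of 4 members were in the RefSeq promoter table (GRCm38.p6, the sequence build of mm10), and Tmem132d had no entry. They are shown because 3 of them held a peak in every list and 1 did not. Each run is the stretch of the window that lies outside the gene, 5′ to 3′ on the gene's strand, with CpG dinucleotides in capitals.
Fzd10, chr5:128600856-128601105, plus strand: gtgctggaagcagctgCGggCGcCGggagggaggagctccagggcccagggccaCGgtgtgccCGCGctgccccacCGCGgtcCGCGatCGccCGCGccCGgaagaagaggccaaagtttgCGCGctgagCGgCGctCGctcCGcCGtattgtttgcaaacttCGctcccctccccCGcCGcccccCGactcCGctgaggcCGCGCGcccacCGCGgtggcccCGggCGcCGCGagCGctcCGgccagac
Stx2, chr5:129008601-129008822, minus strand: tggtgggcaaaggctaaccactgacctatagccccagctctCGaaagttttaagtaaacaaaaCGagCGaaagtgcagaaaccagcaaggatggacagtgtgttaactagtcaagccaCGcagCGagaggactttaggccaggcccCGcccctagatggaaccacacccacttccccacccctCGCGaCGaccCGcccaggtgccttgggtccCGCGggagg
Rimbp2, chr5:128953645-128953736, minus strand: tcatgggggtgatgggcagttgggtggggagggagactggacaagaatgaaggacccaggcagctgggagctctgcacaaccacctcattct
Piwil1, chr5:128735996-128736070, plus strand: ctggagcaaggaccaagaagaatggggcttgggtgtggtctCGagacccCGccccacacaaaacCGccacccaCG

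The printed runs hold 37 CpG in Fzd10, 12 in Stx2, 4 in Piwil1 and 0 in Rimbp2. Over the whole windows of 300 bases, the ratio of observed to expected CpG was 0.995 in Fzd10, 0.807 in Stx2, 0.535 in Piwil1 and 0.238 in Rimbp2, against a median of 0.384 over the 32851 windows of the table. The GC box GGGCGG, searched on both strands, had 3 matches each in the Stx2 and Piwil1 windows, 1 in Fzd10 and 0 in Rimbp2, and 35.7% of all windows held at least 1. The E-box CACGTG, a palindrome, had 2 matches in the Piwil1 window and 0 in the others, against 7.15% of windows with at least 1. A match describes the letters only. Stx2 had a second window inside the gene, from 128990187 to 128990486, with an observed to expected ratio of 0.117 and no peak in any list.

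Fzd10, Rimbp2 and Stx2 were open at these promoters in all 4 lists, and Piwil1 was not. The values given for a peak are the authors' own fold enrichment over the local background and its rank by −log10 q within its list, where rank 1 is the strongest. The peak over the Fzd10 promoter ranked 15414 in fl/fl females, 17009 in del/del females, 13525 in fl/fl males and 15817 in del/del males. Its fold enrichment was 4.78, 4.39, 5.61 and 5.3 in the same order. At the Stx2 promoter the ranks were 10909, 7426, 7499 and 6464 in the same order, and the fold enrichments 5.84, 5.98, 7.76 and 7.48. The peak at the Rimbp2 promoter ranked 15651, 10307, 13473 and 6592, with fold enrichments of 5.96, 5.53, 7.25 and 8.25. In females its −log10 q was 46.1 in fl/fl and 45.4 in del/del cells, so rank and enrichment differ in direction there. Ranks come from lists of unequal length and depth, and give only a peak's place within its own list. The Piwil1 window met only 1 peak, in fl/fl females, with a fold enrichment of 2.04 and rank 129952 of 130103, among the weakest of that list.

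The end of Tmem132d near 128433077 was weakly open in all groups. The best peak there ranked 98619 in fl/fl females and 51372 in del/del females, and 92648 in fl/fl males and 71166 in del/del males. In lists cut to equal length it was therefore present in the deleted lists alone, although its fold enrichment was low throughout, from 2.63 to 3.22. Of the 8 sites with a peak within 1 kb of a member's end, 5 were in all 4 deposited lists and 0 were called gained or lost by the rule below. Besides those described above, a site 0.911 kb inside the upper end of Rimbp2 ranked 55322 in fl/fl and 32881 in del/del females. It ranked 52411 in fl/fl and 29056 in del/del males. A site 0.614 kb inside the same end was in fl/fl females alone, at rank 106846. One 0.635 kb inside the lower end of Stx2 was in del/del females alone, at rank 99342.

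Depth and list length differed between groups, from 74674218 tags in del/del males to 144613215 in fl/fl females. Each list was therefore reduced to its 88159 strongest peaks, the length of the shortest. This keeps weaker peaks of the deleted lists: the last peak kept had a −log10 q of 6.59 in fl/fl and 4.27 in del/del females, and 4.52 and 1.39 in males. How far this moves the counts was not tested apart from the settings in the closing section. As a check of the cell type, 11 of 12 neural stem cell markers had a peak within 1 kb of an end in each list, all but Pax6. Of 4 germ cell markers, chosen because Piwil1 is a germline gene, 2 had one in 3 lists and 1 in del/del males. Ddx4 and Mael had no such peak in any of the 4 lists. All 3 fibroblast markers, 5 or 6 of 7 neuron markers and 2 of 4 astrocyte and of 4 oligodendrocyte markers had such a peak in each list. Of 4 microglia and blood markers 1 had one in each list, and of 3 endothelial markers 1 in every list but that of fl/fl males, which had 0.

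At equal length the stretch held 30 peaks in fl/fl and 53 in del/del females, a log2 ratio of 0.82 (95% exact binomial interval 0.15 to 1.52). The male lists held 30 and 50, a log2 ratio of 0.74 (0.06 to 1.44). The intervals cover counting error only and treat the lists as independent. The stretch was chosen for its peaks in the deleted lists, so whether an interval includes 0 tests nothing. As deposited the female lists held 45 and 57, a ratio of 0.34 (-0.25 to 0.94), and the male ones 36 and 50, a ratio of 0.47 (-0.17 to 1.13). Of 7 other settings, these lists among them, 4 in each sex gave an interval that includes 0. One strong site at the edge of the 50 kb limit had a peak in all lists but was counted in fl/fl females alone. Its summit in fl/fl females lay 7 bp inside, and that in fl/fl males 8 bp outside, with fold enrichments of 7.54 and 8.34. The summits in both deleted lists also lay outside, with fold enrichments of 6.92 in del/del females and 8.97 in del/del males. The peaks of the stretch were of ordinary strength, with a median fold enrichment of 3.65 in del/del females against 3.68 over that whole list, and 4.42 against 4.29 in del/del males.

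**Figure D1:**
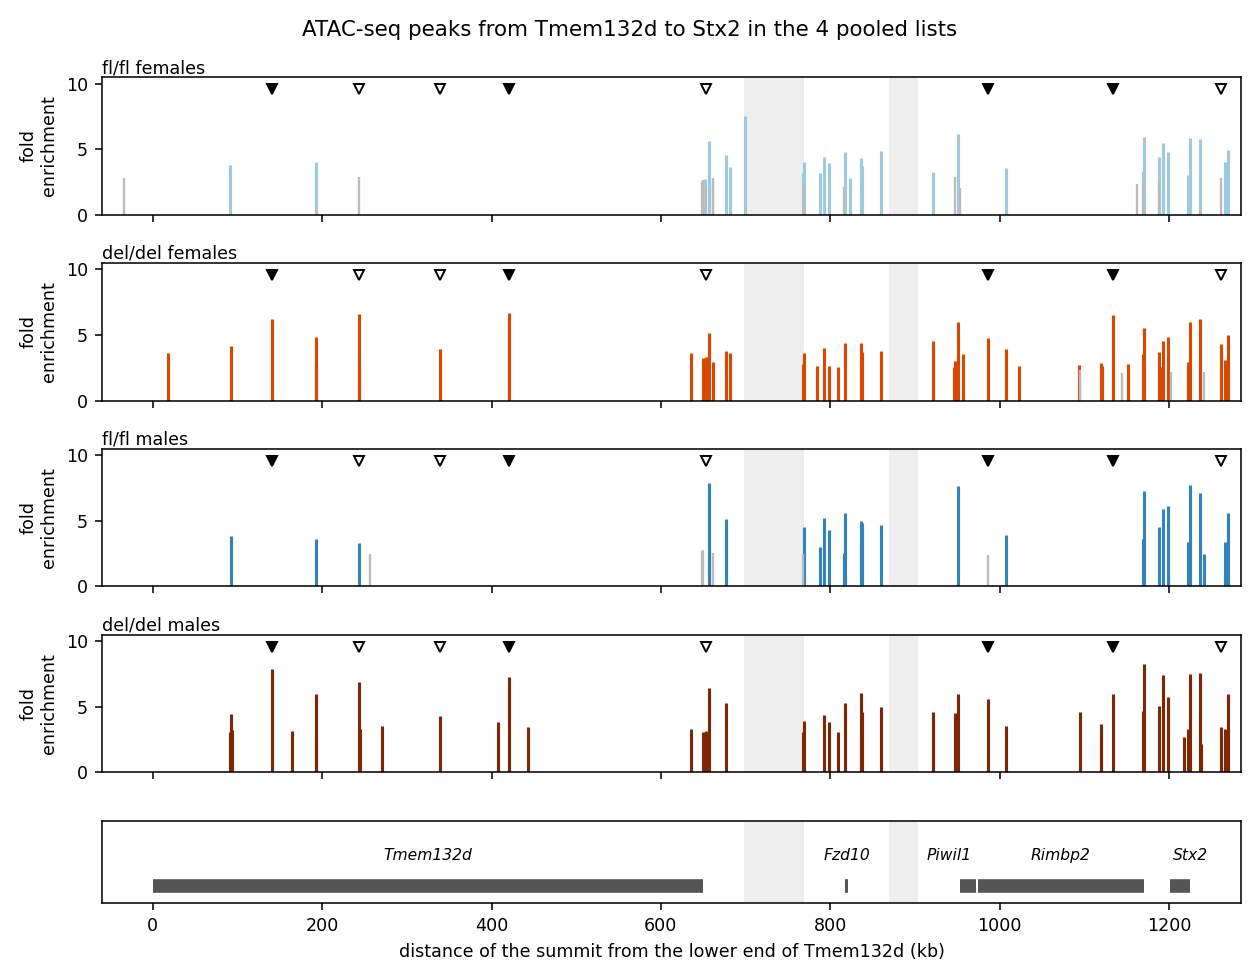
Fold enrichment of each peak (vertical axis) against the distance of its summit from the lower end of Tmem132d in kb, with 1 panel per pooled list and the member genes at the bottom. Coloured lines are peaks within the 88159 strongest of a list, grey lines weaker ones and grey bands the gaps left out. Filled triangles mark the 4 sites gained in both sexes and open ones the 4 called in females alone; the body of Tmem132d holds 2 coloured peaks in fl/fl and 11 in del/del females.

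A gained peak had to rank within the 44079 strongest of the deleted list while no peak among the 88159 strongest of the control list touched it, and a lost peak the reverse. In females 8 of the 26 candidates of the stretch were gained, or 30.8% (14.3 to 51.8), beside 1.13% over all candidates. In males 4 of 23 were gained, or 17.4% (4.95 to 38.8), beside 0.837%. All 4 were gained in females too. They are 15.4% (4.36 to 34.9) of the 26 female candidates of the stretch, beside 0.306% of all female candidates gained in both sexes. Over all chromosomes 500 peaks were gained in females, 369 in males and 135 in both. By the same rule none of 16 candidates was lost in females, with an exact interval that reaches 20.6%, beside 0.44% of all candidates. None of 13 was lost in males, with an interval that reaches 24.7%, beside 1.09%. Of all female candidates 0.0318% were lost in both sexes. Since gained peaks chose the stretch, nothing is read from these shares. With no limit on strength, 26 of 53 peaks were gained in females and 23 of 50 in males, beside 15.3% and 16.9% of all peaks, and 3 of 30 and 4 of 30 were lost, beside 16.9% and 18.7%. Lists limited to peaks with a −log10 q of 10 or more gave 4 gained peaks in females. Within 1 genotype, 0 of 16 strong peaks of fl/fl females had no match in fl/fl males and 0 of 13 the reverse, beside 0.132% and 0.111%. Deleted females against del/del males gave 0 of 26 and 0 of 23, beside 0.948% and 0.49%. The exact intervals of these 4 shares reach 20.6%, 24.7%, 13.2% and 14.8% in the order given. With so few candidates nothing is read from these counts of 0.

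Of the 8 gained sites 4 lay inside Tmem132d, 2 inside Rimbp2 and 2 outside the members. The strongest, in Tmem132d at chr5:128203860-128204583, lies 64.8% of the gene's length from its lower end. It ranked 8905 in del/del females and 15359 in del/del males, with fold enrichments of 6.67 and 7.26, and neither control list held a peak there at any rank. Its length was 724 bp in del/del females, where the median over that list was 316 bp. The site at chr5:127924148-127924496, 141 kb inside Tmem132d, ranked 16765 and 17611 with fold enrichments of 6.24 and 7.87 and was likewise absent from both control lists. Both sites were thus well within the 44079 strongest peaks of each deleted list.

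The other gained sites of Tmem132d were called in females alone. At chr5:128026998-128027427, 244 kb inside the gene, the ranks were 13853 in del/del females and 23216 in del/del males. Here both control lists held a weak peak, at rank 92713 in females and 76878 in males, and the latter lay within the 88159 strongest, which kept the site from being called in males. At chr5:128122703-128122969, near the middle of the gene, the peak ranked 43361 in del/del females, just inside the limit, and 50578 in del/del males, just outside it, with no peak in either control list. All 4 internal sites therefore had a peak in the deleted list of each sex, and in the control lists a weaker one or none.

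Rimbp2 held the other internal sites, and both were gained in females and males. At chr5:128917146-128917514, 36.3 kb from the end that carries its promoter, fold enrichments were 6.54 in del/del females and 6.01 in del/del males, with ranks of 14767 and 29514, and no control list held a peak. At chr5:128769248-128769625, 11.7 kb inside the gene's lower end and 711 bp from the noncoding gene Gm42875, ranks were 30374 and 33331. Control males held a faint counterpart at rank 100834, and fl/fl females none.

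Outside the members, a site 4.09 kb beyond the end of Tmem132d, at chr5:128436953-128437285, ranked 41989 in deleted and 112012 in fl/fl females. Its deleted male peak ranked 58016, and fl/fl males had none. The last, at chr5:129044070-129044343, 35.6 kb beyond Stx2 and 19.4 kb from the noncoding gene Gm38615, ranked 36140 in deleted and 96907 in fl/fl females. Deleted males had it at rank 70199 and fl/fl males not at all. All 4 sites called in females alone thus had a peak in the deleted male list as well, and a difference between the sexes was not tested. Neighbouring gained sites were 81.4 to 332 kb apart, so they do not form 1 tight cluster. Just outside the strength limit, a site inside Piwil1 ranked 45957 in del/del females, with no peak in any other list, that of del/del males included. A site 5.25 kb below Piwil1 ranked 44485 in del/del males and 67239 in del/del females. There fl/fl females held a weak peak at rank 92714, and fl/fl males held none.

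**Figure D2:**
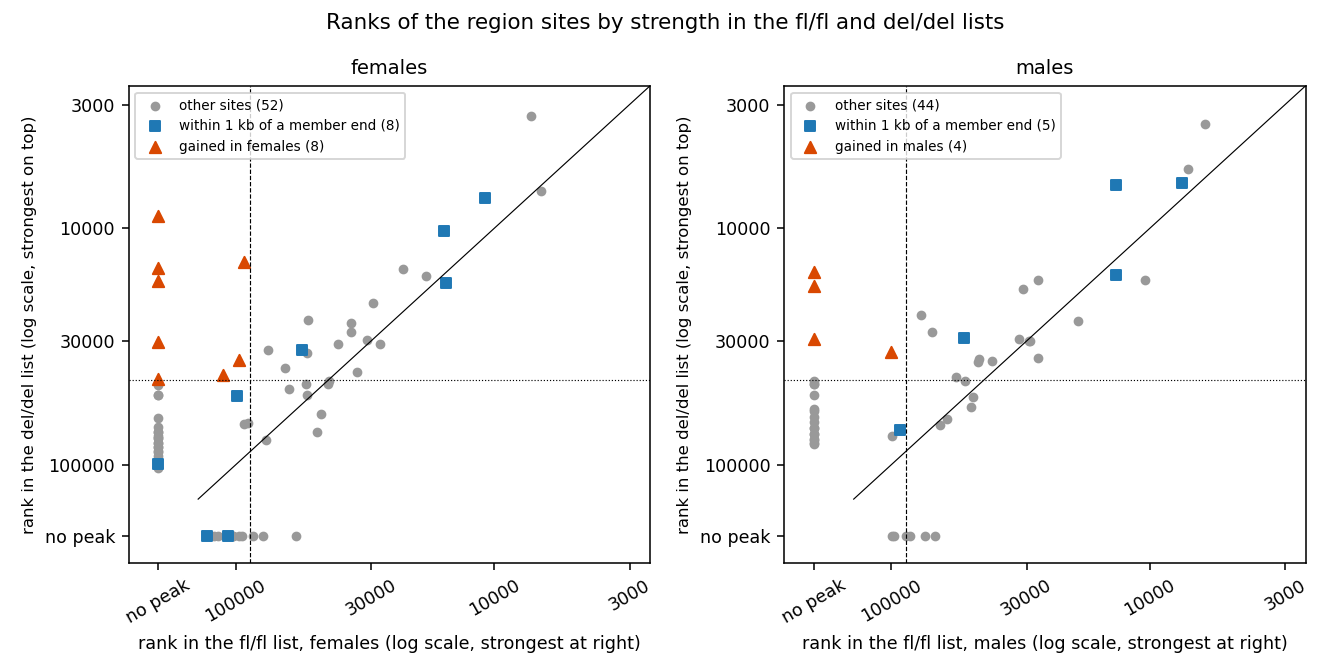
Rank of each site of the stretch in the control list (horizontal) and the deleted list (vertical), on log scales with the strongest peaks at the upper right, females left and males right; sites with no peak in a list lie on the line marked so. The dotted line is the candidate limit of 44079 and the dashed line the list length of 88159. The gained sites (triangles) stand at the left of each panel. Squares are sites with a peak within 1 kb of either end of a member, and those with a peak in every list lie nearer the diagonal than the gained sites.

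Sites of any strength were then counted. Of the 75 sites, 10 had a peak in both deleted lists and in neither control list as deposited, or 13.3%, beside 0.984% of all sites, and 2 had the reverse, or 2.67%, beside 5.59%. Those 2 lay near Fzd10, one inside the noncoding gene Gm38612 and one inside the antisense gene Fzd10os. At equal length 14 of 65 sites were in both deleted lists alone, or 21.5%, beside 2.67%, and 1 in both control lists alone, beside 3.65%. Of the 10 sites, 4 were gained ones described above; 6 lay nearest Tmem132d, 3 nearest Rimbp2 and 1 nearest Fzd10; 9 were inside a member. Sites shared by all 4 deposited lists numbered 27, or 36%, beside 45.5% of all sites, and at equal length 24 of 65, or 36.9%, beside 55.5%. Among sites present in both equal-length lists of a sex, 18 of 27 ranked better in del/del females, beside 48.1% of all shared sites, and 15 of 25 in del/del males, beside 50.4%.

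The members differed from each other. At equal length the stretch had 23 more peaks in del/del than in fl/fl females and 20 more in males, and the bodies of Tmem132d and Rimbp2 together had 16 and 17 more. Within the body of Tmem132d, 649587 bp long, the equal-length lists had 2 peaks in fl/fl and 11 in del/del females, against 3 and 16 in the male lists. Per 100 kb that is 0.308 and 1.69 for females and 0.462 and 2.46 for males. In Rimbp2, 195857 bp long, the female lists had 3 (fl/fl) and 10 (del/del) peaks and the male lists 3 and 7, or 1.53 and 5.11, and 1.53 and 3.57 per 100 kb. As deposited, Tmem132d held 5 and 11 in the female lists and 6 and 16 in the male ones, and Rimbp2 held 5 and 12, and 4 and 7, so both deleted lists still held more than their controls. The gap was smaller as deposited than at equal length for Tmem132d in both sexes and for Rimbp2 in males, and the same, 7 peaks, for Rimbp2 in females.

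At equal length and with 50 kb on each side, the fl/fl and del/del lists of females held 7 and 17 peaks at Tmem132d. Those of males held 6 and 19. Rimbp2 had 7 and 18 in the female lists and 7 and 13 in the male ones. The vesicle fusion gene Stx2 had 10 and 13, then 11 and 13. At equal length its body alone held 2 peaks in every list but that of del/del males, which held 3. As deposited, del/del females held 3 as well. The piRNA gene Piwil1 had 3 and 7 in the female lists and 2 and 5 in the male ones. That window also takes in the gained site at the lower end of Rimbp2. At equal length the body of Piwil1 held 1 peak in del/del females and 0 in the other 3 lists. As deposited it held 1 in fl/fl females as well, the weak one at its promoter. The Wnt receptor gene Fzd10 had 10 and 11 in the female lists and 11 and 10 in the male ones, and as deposited 12 and 11, then 12 and 10. Its neighbourhood was the most densely open of the 5 in controls, with 9.71 and 10.7 peaks per 100 kb. Among the 21883 protein-coding genes taken the same way, 31.5% had more peaks in del/del females and 39.6% in del/del males, with a median difference of 0 in either sex. A difference of at least 10, that of Tmem132d in females, was found in 25 genes, Tmem132d included. One of at least 11, that of Rimbp2, was found in 17, Rimbp2 included. In males 8 genes, Tmem132d included, had at least its difference of 13, and 191, Rimbp2 included, had at least the 6 of Rimbp2. Genes that lie together share peaks, so these counts are not independent. Genes were not matched for length here, and a longer window can hold more peaks.

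**Figure D3:**
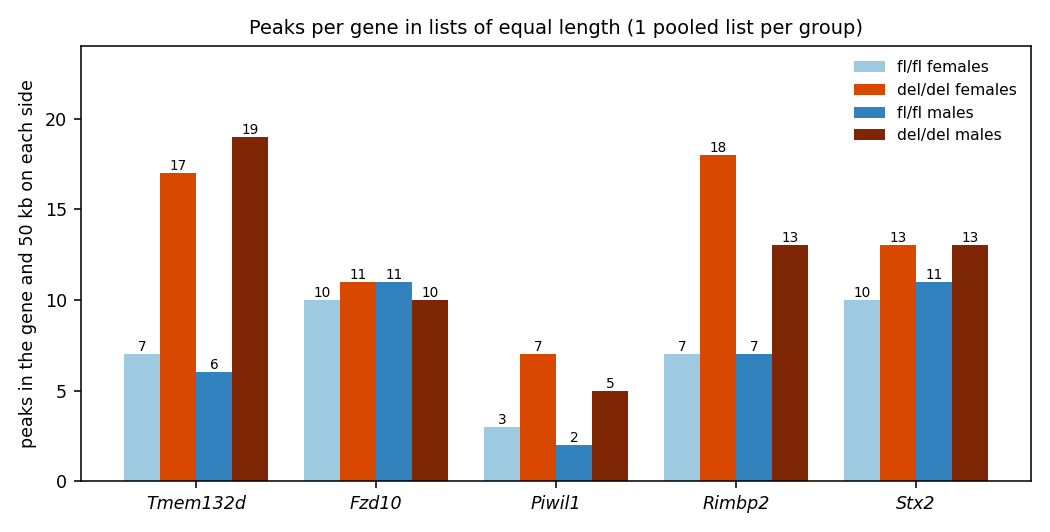
Number of peaks in each member gene and 50 kb on each side, in lists of equal length, with 1 bar per pooled list. The deleted lists stand above their controls at Tmem132d (17 over 7 and 19 over 6) and Rimbp2 (18 over 7 and 13 over 7), while at Fzd10 the 4 bars lie between 10 and 11.

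The other genes of the stretch, counted in lists of equal length, followed their neighbours. Ran, the GTPase of nuclear transport, had 10 (fl/fl) and 13 (del/del) peaks within 50 kb in the female lists and 12 and 13 in the male ones, and the site at its lower end, chr5:129019455-129021115, was the strongest of the stretch in both deleted lists, at ranks 3360 and 3637, and ranked 7242 and 6118 in controls. The noncoding genes Gm42875 and Gm34057 inside Rimbp2 lay in windows with 2 and 7, and 1 and 3, peaks in the female lists. The male lists had 2 and 4, and 1 and 2, there. Gm33738, between Tmem132d and Fzd10, had 7 and 11, then 6 and 7 in males. Around Fzd10, Gm38612 had 14 in each female list and 13 in each male one, Fzd10os 12 and 14, then 13 and 12, and Gm33931 9 and 8, then 9 and 9. Gm33995, below Piwil1, had 5 and 7, then 3 and 6. No gained site lay nearest Fzd10, and those gained in both sexes lay on either side of it.

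The locus was set beside the rest of the genome in 2614 bins of 1 Mb. The bin from 128 to 129 Mb of chromosome 5 held 6 peaks gained in females, and 3 bins held more. In males it held 3, and 8 bins held more, and of peaks gained in both sexes it held 3, and 2 bins held more. The median bin held 0 in each case and the fullest bin 10, 8 and 4. The bin below it, which holds the lower part of Tmem132d, had 3, 2 and 2 gained peaks. Of the gained sites in Tmem132d it held only that at chr5:127924148-127924496, and its others lay in or near Tmem132c. The stretch held 8 of the 50 peaks that chromosome 5 gained in females, 4 of 37 in males and 4 of 20 in both, and 0 of 5 and 0 of 22 lost in females and males. The bin was noticed in these same lists, so its place describes them.

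**Figure D4:**
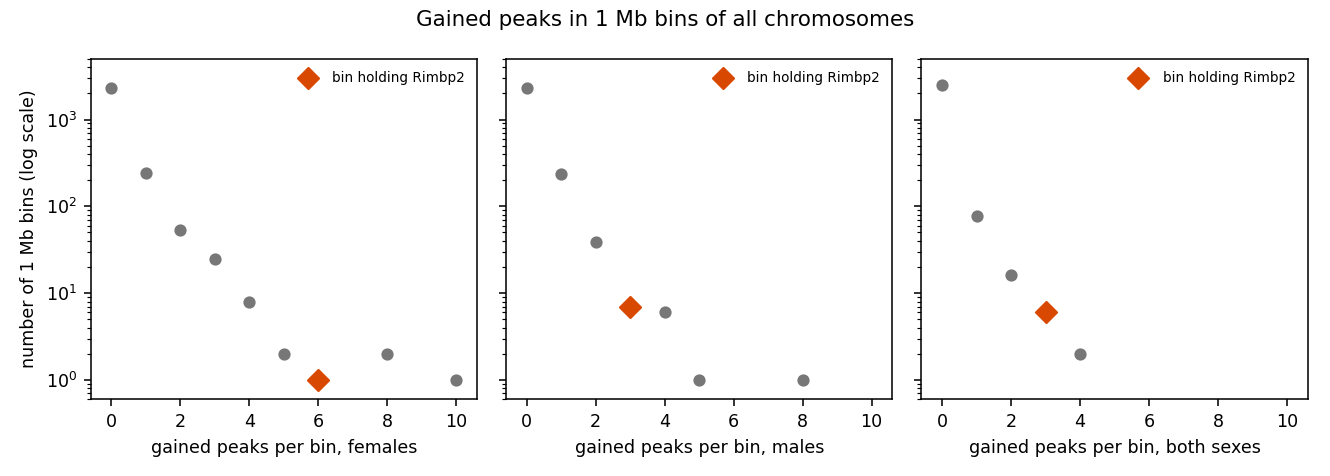
Number of 1 Mb bins (vertical, log scale) that hold a given number of gained peaks (horizontal), for females, males and both sexes, over all chromosomes. The diamond marks the bin from 128 to 129 Mb of chromosome 5, with 6, 3 and 3 gained peaks; most bins hold 0.

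Tmem132d was also compared with other long genes. Of 226 protein-coding genes of at least 500 kb, 28 had an internal peak gained in females, or 12.4%, and the median was 0. The 4 of Tmem132d were reached by Rbfox1, a neuronal splicing factor gene, and Csmd1, a gene for a complement control protein of the nervous system. In males 18 of the 226 had one, and 9, Tmem132d included, had at least the 2 of Tmem132d. In both sexes 7 of the 226 had a gained internal peak, and Rbfox1 alone matched the 2 of Tmem132d. By the sum of differences in the numbers of peaks gained and lost in females and males within the gene and 50 kb, over 4 lists, no other coding gene had the same numbers as Tmem132d, which were 5, 2, 0 and 0. A sum of 1 was found for 4 genes, each with 4, 2, 0 and 0: Snrpn, an imprinted gene of chromosome 7, Psg28, a pregnancy-specific glycoprotein gene, Csmd1 and Rbfox1. A sum of 2 was found for 4 further genes, and of these Cpne4, a copine gene with 3, 2, 0 and 0, had the total number of peaks closest to that of Tmem132d. Snrpn was also closest in its peaks, with 7 and 17 in the female lists of equal length and 8 and 17 in the male ones.

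Relatives of the members were counted from lists of each pathway, with the gene and 50 kb on each side and peak lists of equal length. Over all 21883 coding genes, 1.64% had a peak gained in females, 1.88% in males and 0.439% in both, and 1.29%, 2.43% and 0.0731% had one lost. Of the 4 other TMEM132 genes 2 had a peak gained in females and 1 in both sexes. Tmem132c, on chromosome 5 below Tmem132d, had the site near 127227930, 13.8 kb outside the gene, with fold enrichments of 4.54 in del/del females and 5.81 in del/del males. A second site, inside Tmem132c at chr5:127405298-127406023, was gained in females with a fold enrichment of 4.09. It had 9 peaks in fl/fl and 18 in del/del females, and 7 and 15 in the male lists. Tmem132b, also on chromosome 5, had an internal peak gained in females, with a fold enrichment of 4.35, and had 15 and 22 peaks in the female lists and 16 and 23 in the male ones. Tmem132a had 9 peaks in each list, and Tmem132e 6 and 9, then 7 and 7.

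In each of the other 5 lists, 0 to 2 genes had a peak gained or lost in a sex. Beside these counts stand 1.29% of all coding genes with a peak lost in females and 2.43% in males. A difference of these lists from the shares of all coding genes was not tested. Of 14 Frizzled receptors and Wnt coreceptors 0 had a gained peak, and 2 had one lost in males, Ror1 and Fzd4, with fold enrichments of 5.13 and 5.26 in fl/fl males. Of 11 Wnt targets and feedback inhibitors and of 26 syntaxins and SNARE partners none had a called peak. Of 16 PIWI and piRNA factors 1 had a peak gained in males, the PIWI gene Piwil4, and 1 a peak lost in females, Tdrd7. Of 16 genes for RIM-binding and active zone proteins, 1 had a peak gained in females, Rims3, with a fold enrichment of 3.54. In the same list 2 had one lost in females, Erc2 and Rims2, and 2 in males, Erc2 and Ppfia2, the Erc2 peaks of the sexes being at different places. The median difference in peak number, deleted minus control, was 5 in females and 3.5 in males for the TMEM132 genes, and between 0 and 1 for the other 5 lists.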

How the data were processed

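The 10 libraries were sequenced after ATAC-seq. The submitters' processing notes name the build mm10 and, with no role stated, bcl2fastq, Trim Galore (0.4.0), SAMtools, Picard, Bowtie2 (2.2.5), edgeR and MACS2. Per the file headers, peak calling used MACS 2.1.0.20140616 on 1 alignment per group without a control, with tags shifted 75 bp upstream and extended to 150 bp, a q-value limit of 0.05, and 1 tag kept per position, so signal at strong peaks is compressed. The deposited values used here are the pileup signal, the fold enrichment ratio and the −log10 q of each peak; all are the authors' own and served to rank or describe peaks within a list. Filtered tags numbered 144613215 (53 bp) for fl/fl females, 139318421 (63 bp) for del/del females, 91734730 (62 bp) for fl/fl males and 74674218 (59 bp) for del/del males. The male lists come from fewer tags, and tag length differed between all 4 groups; the part of either in the counts was not tested.

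Peaks of chromosomes 1 to 19, X and Y were ranked by −log10 q, ties in file order, and cut to 88159. Sharing 1 bp counted as overlap. Sites are peaks of the 4 lists merged where they overlap. Genes came from RefSeq GRCm38.p6. Named are all members, their neighbours within 50 kb, every called site, every site at a member's end, the called members of each pathway list, and the 5 genes closest to Tmem132d in called peaks. Members and lists were chosen with earlier results of these data known. The calling was tested on simulated data made from the fl/fl female list alone, without the differences in depth and tag length between groups. Software was Python 3.11.15 with matplotlib 3.10.9, scipy 1.17.1, numpy 2.4.6 and pandas 2.3.3. Alternatives covered list length, ranking value, flank, threshold, overlap, strength limit and the list used for absence.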

Additional observations from a re-analysis of the deposited data

Results flagged for a closer look

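At Fzd10 the number of peaks in the gene and 50 kb on each side moved in opposite directions in the sexes, which is why it is given here. The difference, deleted minus control, was 1 in females and -1 in males in lists of equal length. It rests on 1 peak in each sex and was not tested. As deposited, the numbers were 12 and 11 in females and 12 and 10 in males, so the sign in females turned.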

How the results depend on the processing

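No paired analysis was possible because each group was deposited as 1 pooled list, and for the same reason no library could be left out. Of 74 values recomputed under 10 settings, 60 stayed within their margin and 14, all counts of called peaks, moved by over 1.5 times. With the candidate limit dropped, 26 peaks were gained in females, 23 in males and 14 in both sexes, and 3, 4 and 1 were lost. In lists of 44079 peaks, 4, 2 and 2 were gained. At a −log10 q of at least 10, 4 were gained in females. With absence required from the control list as deposited, 5 were gained in females. Ranked by fold enrichment, 7 were gained in males. Ranked by pileup, 2 were lost in males, and with all peaks as deposited 1 was lost in females. The cause was not tested. The log2 ratio of peak number ranged from 0.34 to 1.22 in females and from 0.43 to 1.21 in males. Its interval included 0 in 4 of 7 settings in each sex: with deposited lists, shorter lists and a −log10 q minimum of 10 in both, by pileup in females (0.64, -0.01 to 1.31) and with 100 kb flanks in males (0.52, -0.03 to 1.09). As the stretch was chosen from these lists, these intervals describe it and are no test. Depth limits what absence means: a site without a peak in a list may still hold signal below the authors' threshold.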
